A study of Mus musculus with 8 samples.

Results

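The lymphoid homing chemokines measured here were CCL19/MIP-3β, CCL20/MIP-3α, CCL21/6Ckine and CXCL13/BLC/BCA-1, which were 4 of the 111 proteins with a pair of antibody spots on a mouse cytokine array. They were chosen for their known role in moving lymphocytes and dendritic cells, and were found by the Entrez gene identifiers in the files: Ccl19 (24047), Ccl20 (20297), Ccl21a (18829) and Cxcl13 (55985). The array was the Proteome Profiler Mouse XL Cytokine Array, a nitrocellulose membrane on which captured proteins give a light signal, and each membrane was exposed to a lysate of subcutaneous tumour. TC-1/IR is a radiation-resistant derivative of TC-1, a mouse tumour line that expresses the E6 and E7 oncoproteins of HPV16. Tumours of both lines grew in the right thigh of female C57BL mice aged 10 weeks, from 300000 TC-1/IR cells or 100000 TC-1 cells.

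Each line was given 4 treatments, which were started at about 100 mm3 and 8 to 10 days after inoculation. The groups of each line were radiotherapy with IL-7 (RT + IL-7), IL-7 alone, radiotherapy alone (RT) and buffer. Radiotherapy was whole-body gamma irradiation at 2 Gy a day on 4 days, so that lymphoid organs were irradiated together with the tumour. IL-7 was recombinant human IL-7-hyFc, a long-acting Fc fusion of the T-cell cytokine, given under the skin at 50 µg on days 0 and 7. One membrane was available for each of the 8 groups. The titles describe pooled lysates, but the design text describes tumours of single mice, which leaves unclear how many animals a membrane stands for. The p-values below measure only the spread between membranes.

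As background, CCL19 and CCL21 are the ligands of the receptor CCR7, which brings naive T cells and mature dendritic cells into the T-cell zones of lymph nodes. CXCL13 draws B cells and follicular helper T cells into B-cell follicles through CXCR5, and CCL20 draws CCR6-bearing cells, among them immature dendritic cells, B cells and Th17 cells, towards epithelia. Outside lymph nodes these proteins are known for their presence in tertiary lymphoid structures, the lymph-node-like aggregates that form in some tumours and inflamed tissues.

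Because the 4 proteins share a function but are made from separate genes, the 120 bases before each transcription start are shown (RefSeq, GRCm38.p6, all 4 genes matched by symbol, 5′ to 3′ on the gene's own strand). Capitals mark matches to either of the motifs searched on both strands, the letters TATAAA and the NF-κB decamer, a binding element of the NF-κB family of inflammatory transcription factors.
Ccl19 promoter (chr4:42756366-42756485, minus strand): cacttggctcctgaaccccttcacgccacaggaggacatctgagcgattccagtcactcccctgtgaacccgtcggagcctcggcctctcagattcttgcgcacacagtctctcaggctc
Ccl21a promoter (chr4:42773992-42774111, minus strand): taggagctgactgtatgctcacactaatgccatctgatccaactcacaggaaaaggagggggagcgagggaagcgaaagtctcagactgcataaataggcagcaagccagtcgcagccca
Cxcl13 promoter (chr5:95956819-95956938, plus strand): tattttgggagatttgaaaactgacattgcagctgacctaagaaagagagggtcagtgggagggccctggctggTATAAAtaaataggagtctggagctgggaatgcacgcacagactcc
Ccl20 promoter (chr1:83116646-83116765, plus strand): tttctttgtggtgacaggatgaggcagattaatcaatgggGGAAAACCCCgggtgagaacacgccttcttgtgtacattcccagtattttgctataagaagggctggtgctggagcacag
The Ccl20 stretch held the NF-κB decamer, read on the opposite strand and starting 80 bases before the start site, as did 1199 of 32851 mouse promoter stretches of the same length (3.65%). The Cxcl13 stretch held TATAAA from 46 bases before its start site, as did 2083 of them (6.34%). The matches do not overlap one another, and the Ccl19 and Ccl21a stretches, which lie close together on chromosome 4, held neither motif. These matches describe the letters and were not tested for any tie to the protein levels. Mouse Ccl21a has closely similar copies that encode nearly the same protein, so the CCL21 spots cannot be assigned to a single gene.

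All values are deposited spot intensities in arbitrary units, averaged over the duplicate spots of a membrane. The floor, below which a level was treated as only bounded, was set at 1% of the brightest analyte mean and equalled 2.49. The membranes differed in total signal: summed over the 111 analytes it was 739.4, 1495.2, 1472.5 and 765.1 on the TC-1/IR membranes after RT + IL-7, IL-7, RT and buffer, and 1173.1, 1449.2, 1252.1 and 1203.5 on the TC-1 membranes in the same order. Between 36 and 64 analytes were above the floor on a TC-1/IR membrane and between 68 and 91 on a TC-1 membrane. The 4 homing chemokines were dim on this scale. CCL19 was above the floor on 6 of 8 membranes, CXCL13 on 3, and CCL20 and CCL21 on 1 each.

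CCL19 was the brightest of the 4 and varied most with treatment. On the TC-1/IR membranes its intensity was 6.595 after RT + IL-7 (spots 6.67 and 6.52), 1.105 after IL-7 (1.19 and 1.02), 3.53 after RT (4.15 and 2.91) and 3.265 with buffer (4.06 and 2.47). On the TC-1 membranes it was 4.95 after RT + IL-7 (5.10 and 4.80), 7.07 after IL-7 (6.75 and 7.39), 3.14 after RT (3.39 and 2.89) and 1.44 with buffer (1.52 and 1.36). The TC-1/IR tumours thus had their highest CCL19 with the combination and their lowest with IL-7 alone, while the TC-1 tumours had their highest with IL-7 alone and their lowest with buffer. By rank within a membrane, CCL19 stood 17th of 111 in TC-1/IR after RT + IL-7, 67th after IL-7, 44th after RT and 33rd with buffer. In TC-1 it stood 47th, 41st, 78th and 84th in that order of treatments. Its share of the membrane's summed signal was 0.892% in TC-1/IR after RT + IL-7 and 0.0739% after IL-7.

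The other CCR7 ligand, CCL21, lay near or below the floor throughout. Its intensity was 0.56, 0.82, 1.74 and 1.365 in TC-1/IR after RT + IL-7, IL-7, RT and buffer, and 2.455, 2.50, 1.24 and 1.045 in TC-1 in the same order. Only the TC-1 membrane after IL-7 passed the floor, and its 2 spots read 3.04 and 1.96. The first of the duplicate CCL21 spots was the brighter on 8 of 8 membranes, which held for 6 of the 111 analytes (5.41%), and the gap between spots was a large part of the mean. The 4 TC-1/IR values overlapped the 4 TC-1 values.

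CXCL13, the B-cell attractant, separated the lines. It measured 0.355, 0.001, 1.345 and 0.1705 in TC-1/IR after RT + IL-7, IL-7, RT and buffer, against 2.625, 3.045, 2.80 and 1.97 in TC-1 in the same order. Every TC-1/IR value was below every TC-1 value, which held for 50 of 111 analytes (45%), and every TC-1/IR value was under the floor. Both TC-1/IR spots after IL-7 and 1 of the pair with buffer were listed at 0.001, the fixed low value that 98 TC-1/IR spots and 5 TC-1 spots carried.

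CCL20, the CCR6 ligand, was the only 1 of the 4 with a higher mean in TC-1/IR, although the lines overlapped. After median centring CCL19 was also higher there (5.02 in TC-1/IR, 3.57 in TC-1). CCL20 measured 1.06, 2.645, 1.685 and 1.345 in TC-1/IR after RT + IL-7, IL-7, RT and buffer, and 1.78, 2.00, 0.93 and 0.45 in TC-1 in the same order. The membrane that passed the floor was TC-1/IR after IL-7, where the spots read 2.17 and 3.12.

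**Figure D1:**
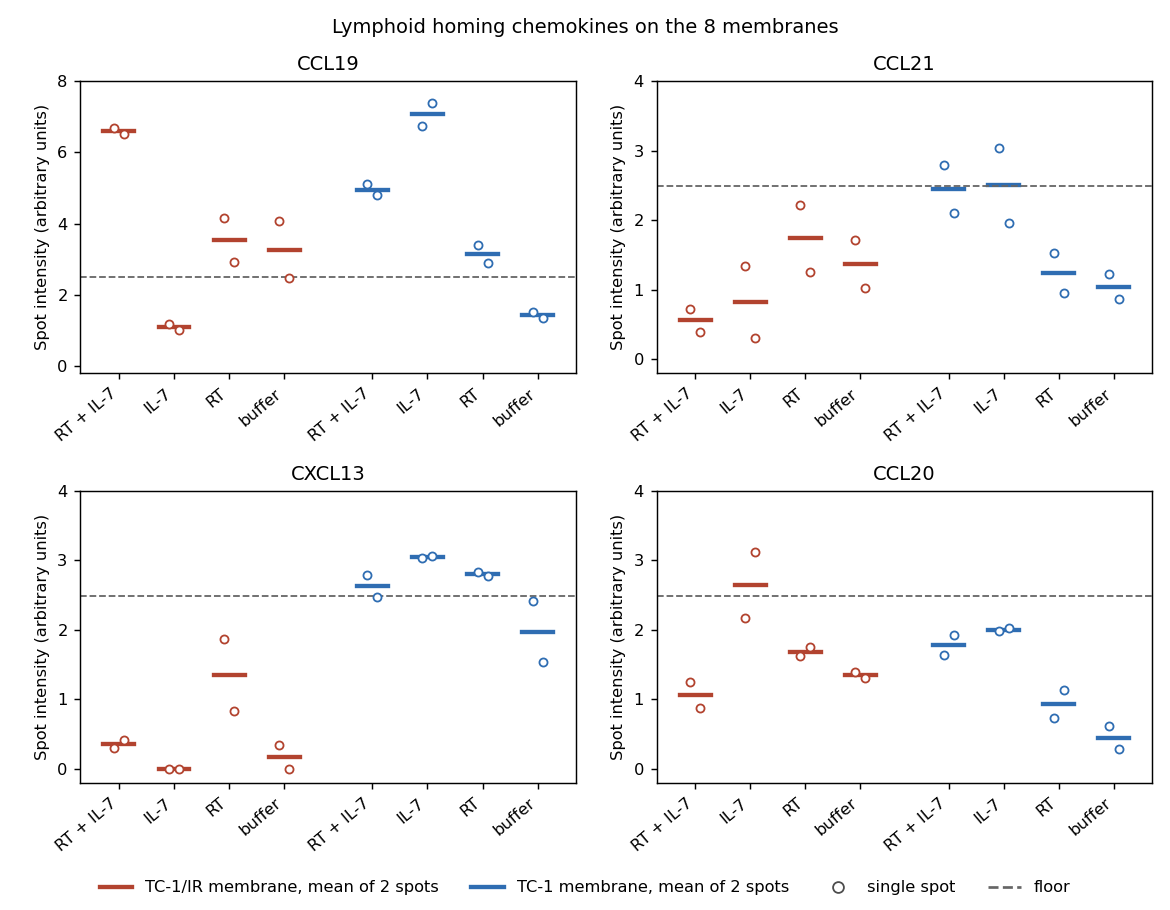
Spot intensities (arbitrary units) of CCL19, CCL21, CXCL13 and CCL20 on the 8 membranes, with TC-1/IR in red and TC-1 in blue; open circles are single spots, bars are their mean and the dashed line is the floor of 2.49. CCL19 is above the floor on 6 membranes, and the 4 TC-1/IR bars of CXCL13 all lie below the 4 TC-1 bars.

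The comparison of the lines asks whether homing chemokines differed in tumours of the resistant derivative. CXCL13 averaged 0.468 ± 0.602 in TC-1/IR and 2.61 ± 0.460 in TC-1 (SD, n = 4 membranes each, over the 4 treatments). It was lower in TC-1/IR under all 4 treatments, by 1.455 to 3.04 intensity units. An exact two-sided permutation test of the 70 ways to split 8 membranes gave p = 0.0286 for the difference of -2.14. That is the smallest p the test can give, and it was 0.0622 after Benjamini-Hochberg adjustment over 111 analytes. For line, 51 analytes had a permutation p under 0.05, 0.0622 was the smallest adjusted value and 0 passed. The test could therefore not tell CXCL13 from the other analytes at its smallest p. The separation was also common on this array: TC-1/IR lay wholly below TC-1 for 50 of 111 analytes (45%), and for 40 (36%) after each membrane was centred on its median, CXCL13 among them. Lysates of whole tumours do not tell fewer cells making a protein from less of it per cell.

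The 3 others overlapped between the lines. CCL19 averaged 3.62 ± 2.26 in TC-1/IR and 4.15 ± 2.42 in TC-1 (SD, n = 4 each, exact permutation p = 0.714, adjusted 0.826). CCL21 averaged 1.12 ± 0.532 in TC-1/IR and 1.81 ± 0.775 in TC-1 (SD, n = 4 each, exact permutation p = 0.229, adjusted 0.321). CCL20 averaged 1.68 ± 0.690 in TC-1/IR and 1.29 ± 0.726 in TC-1 (SD, n = 4 each, exact permutation p = 0.486, adjusted 0.586). None of these 3 differences exceeded the spread between membranes.

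**Figure D2:**
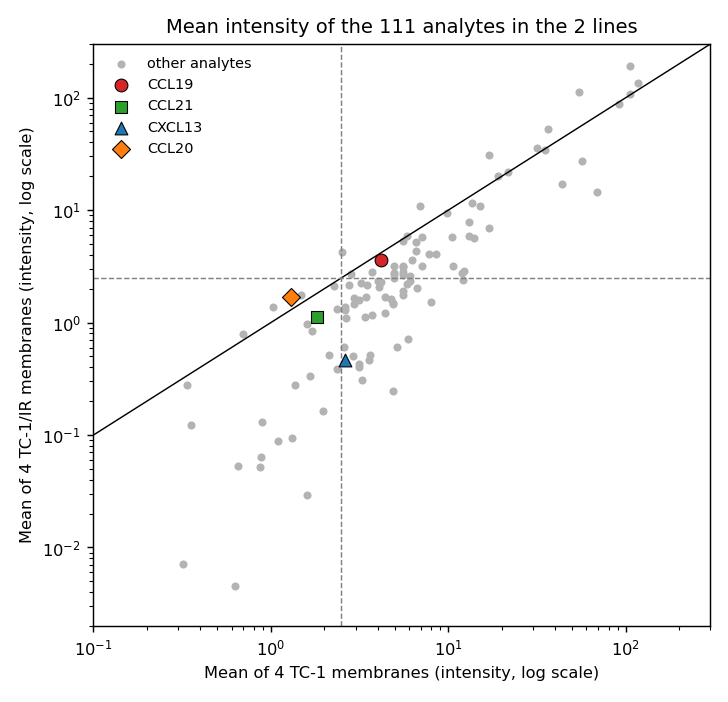
Mean intensity of each of the 111 analytes over the 4 TC-1/IR membranes (vertical axis) against its mean over the 4 TC-1 membranes (horizontal axis), both on log scales; the solid line marks equal means and dashed lines mark the floor. CXCL13 (0.468 in TC-1/IR, 2.61 in TC-1) lies with many other analytes below the line, CCL19 and CCL21 lie below it by less, and CCL20 lies above it.

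Of the 4 chemokines, CCL19 alone was above the floor on at least 4 membranes, so it was the only one that entered the fit across analytes (limma on log2 floored intensities, 75 analytes, Benjamini-Hochberg adjustment). Its log2 difference between TC-1/IR and TC-1 was -0.13 (SE 0.35, limma adjusted p = 0.775), whereas 31 of the 75 analytes (41.3%) passed for line. The estimate was 0.25 after median centring, so its sign is not settled. For RT against no RT its log2 difference was 0.33 (SE 0.35, limma adjusted p = 0.969), and 1 of 75 analytes passed (1.33%), the interferon-induced chemokine CXCL10. For IL-7 against no IL-7 it was 0.67 (SE 0.35, limma adjusted p = 0.974), and 0 of 75 passed (0%), while 0 had an unadjusted p under 0.05 in limma. The fitted size for IL-7 equals 1.59-fold, and CCL19 was higher with IL-7 in 3 of 4 pairs of membranes that differed in IL-7 alone, the exception being TC-1/IR after IL-7 against TC-1/IR with buffer. CXCL13 entered under 3 alternatives. With the floor lowered to 0.5% of the brightest mean, its log2 line difference was -1.02 (SE 0.24, limma adjusted p = 0.0166, 39 of 96 analytes lower, 40.6%). It was -0.44 with a floor set per membrane (limma adjusted p = 0.341) and -0.13 with no filter on low values (limma adjusted p = 0.251). The call at 0.5% thus rests on where the floor lies.

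Single membranes were then compared within each line and between the lines, in 14 comparisons with no replicate check. A protein was called when the floored means differed by at least 1.5-fold, at least 1 membrane was above the floor and the duplicate spots did not overlap. Of the 56 comparisons of the 4 chemokines, 7 were called, all of CCL19. None of the 4 was called in the other 7 of the 14, where 36% (buffer), 40.5% (RT) and 41.4% (RT + IL-7) of all analytes were called between TC-1/IR and TC-1. Within TC-1/IR the share was 29.7% for RT over buffer and 26.1% for IL-7 over buffer, and within TC-1 it was 18% for RT over buffer and 19.8% for RT + IL-7 over IL-7. Where one level was under the floor, the ratio was computed against 2.49 and is written as a lower bound, and SE here means the technical error from duplicate spots.

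In TC-1/IR tumours the combination had more CCL19 than any other treatment. CCL19 was 6.595 after RT + IL-7 against 3.53 after RT, a log2 ratio of 0.90 (SE 0.25, 1.87-fold), in a comparison where 3 of 111 analytes were called higher (2.7%) and 31 lower. It was 6.595 after RT + IL-7 against 1.105 after IL-7, at least 2.65-fold higher, where 4 of 111 were called higher (3.6%). Against 3.265 with buffer the log2 ratio was 1.01 (SE 0.35, 2.02-fold), where 7 of 111 were called higher (6.31%). The combination membrane had the lowest summed signal, and the median log2 ratio of all analytes measured was -0.55 over RT, -0.65 over IL-7 and -0.07 over buffer. CCL19 therefore ran against the general direction in the comparisons with RT and with IL-7, and it was also called higher in all 3 after median centring.

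The few analytes called higher over RT and over IL-7 were all chemokines, and are named after their values were seen. Over RT alone they were CCL19, CXCL9 (3.805 after RT + IL-7, 1.845 after RT) and CXCL16 (4.335 after RT + IL-7, 1.825 after RT). The spot SD of CXCL16 was 1.70 after RT + IL-7, and with buffer it read 4.425 (spot SD 2.06), so it was not raised over buffer. CXCL9 is an interferon-induced CXCR3 ligand that attracts effector T cells, and CXCL16 attracts CXCR6-bearing T cells. Over IL-7 alone they were the same 3 with CXCL10 (34.01 after RT + IL-7, 13.13 after IL-7, 2.59-fold). CCL19, CXCL9 and CXCL10 were also higher over buffer, together with chemerin, IL-1ra, LDL receptor and leptin. With radiotherapy alone, TC-1/IR tumours had 3.53 CCL19 against 3.265 with buffer, a log2 ratio of 0.11 (SE 0.43), and with IL-7 alone they had 1.105 against 3.265, neither of which was called. After median centring both were called lower, RT over buffer at -0.73 and IL-7 over buffer at -0.86 on the log2 scale, so no direction is given for RT over buffer.

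In TC-1 tumours CCL19 was called higher wherever IL-7 was given on top of buffer or of RT. It was 7.07 after IL-7 against 1.44 with buffer, at least 2.84-fold higher, where 29 of 111 analytes were called higher (26.1%). It was 4.95 after RT + IL-7 against 1.44 with buffer, at least 1.99-fold higher, where 14 were called higher (12.6%). It was 4.95 after RT + IL-7 against 3.14 after RT, a log2 ratio of 0.66 (SE 0.12, 1.58-fold), where 4 were called higher (3.6%). The first of these comparisons moved much of the array upwards, with a median log2 ratio of 0.42 over 91 analytes. The combination was not called against IL-7 alone in TC-1 (log2 ratio -0.51, SE 0.08), nor RT against buffer.

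Between the lines, CCL19 was called in 1 of 4 treatments. After IL-7 alone it was 1.105 in TC-1/IR against 7.07 in TC-1, at least 2.84-fold lower, in a comparison where 53 of 111 analytes were lower (47.7%). After RT + IL-7 it was 6.595 in TC-1/IR against 4.95 in TC-1, a log2 ratio of 0.41 (SE 0.05) that was not called. That log2 ratio was 1.17 and was called after median centring. With buffer CCL19 was 3.265 in TC-1/IR against 1.44 in TC-1, at least 1.31-fold higher and not called, but it was called higher after median centring (at least 1.81-fold) and with a floor of 0.5% (2.27-fold). After RT it was 3.53 in TC-1/IR against 3.14 in TC-1 (log2 ratio 0.17, SE 0.28).

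**Figure D3:**
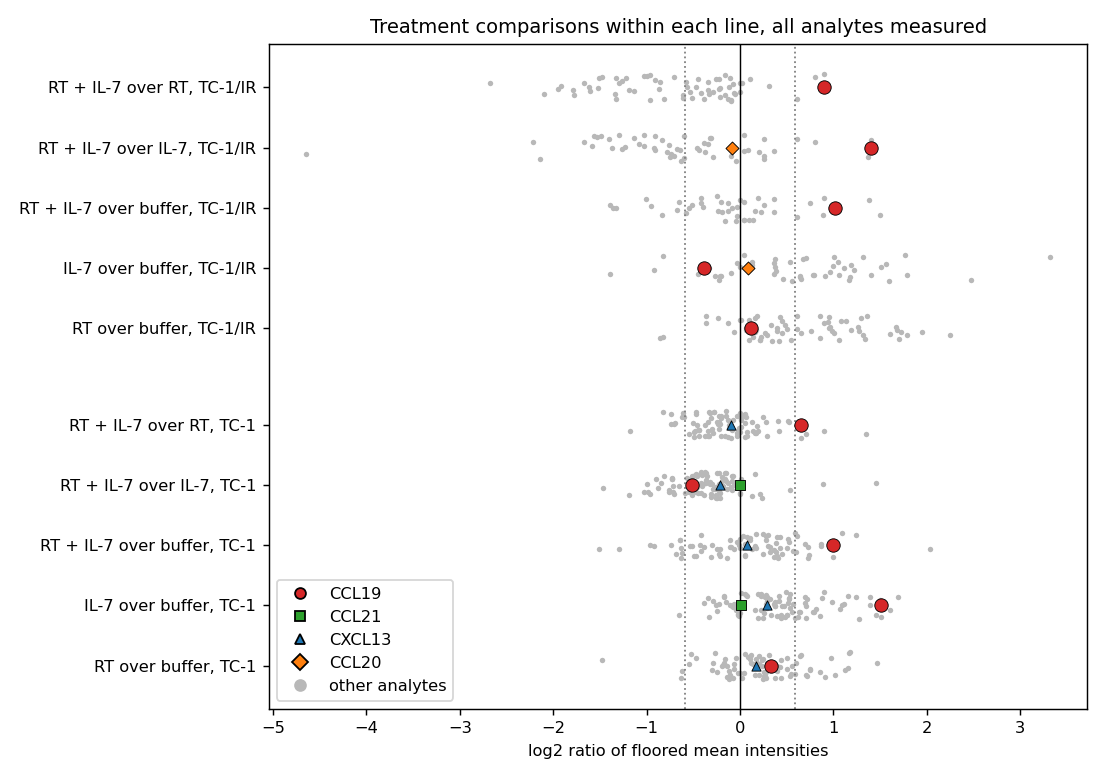
Log2 ratios of floored mean intensities for the 5 treatment comparisons within TC-1/IR (upper rows) and within TC-1 (lower rows); grey points are other analytes with at least 1 membrane above the floor, coloured symbols are the homing chemokines and dotted lines mark 1.5-fold. CCL19 lies at the upper end in the TC-1/IR comparisons of RT + IL-7 with RT (0.90) and with IL-7 (1.41), where most analytes lie below 0.

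The contrasts of the contrasts were tested in 2 further limma fits. Averaged over RT, the IL-7 response of CCL19 in TC-1/IR minus that in TC-1 was -0.83 in log2 units (limma SE 0.72, adjusted p = 0.982). The same difference for the RT response, averaged over IL-7, was 0.85 (limma SE 0.72, adjusted p = 0.999). The combination departed from the sum of RT and IL-7 by 0.22 (SE 0.70, limma adjusted p = 0.793), while the median over the 75 analytes was -0.64. After median centring this departure was 1.44 (SE 0.58, limma adjusted p = 0.660). None of the 75 analytes passed limma's adjusted threshold in any of these 3 tests, while 14 had an unadjusted p under 0.05 for the departure, 1 for the line difference in IL-7 response and 0 for that in RT response.

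The order of treatments was shared by the 4 chemokines in TC-1 and not in TC-1/IR. In TC-1, CCL19, CCL21, CXCL13 and CCL20 were each highest after IL-7 and lowest with buffer. The same order was found for 43 of 111 analytes (38.7%), so it was frequent on these membranes. For CCL21 this order rested on 2.50 after IL-7 against 2.455 after RT + IL-7, within the spot SDs of 0.764 and 0.488. For CCL20 this order rested on 2.00 against 1.78, both under the floor. In TC-1/IR, where 12 of 111 analytes had that order (10.8%), none of the 4 did. There CCL19 was highest after RT + IL-7, CCL20 after IL-7, and CCL21 and CXCL13 after RT. CCL19 and CXCL13 were lowest after IL-7, and CCL21 and CCL20 after RT + IL-7. Across the 8 membranes, which share their depth differences, the intensities of CCL21 and CXCL13 had a Pearson r of 0.69 and those of the CCR7 ligands CCL19 and CCL21 an r of 0.44 (n = 8, descriptions only). The r of CXCL13 with CCL20 was -0.20.

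For IL-7, CCL20 averaged 1.87 ± 0.654 with IL-7 and 1.10 ± 0.533 without (SD, n = 4 membranes each, exact permutation p = 0.114, adjusted 0.989). It was higher with IL-7 in 3 of 4 pairs, the exception being RT + IL-7 against RT in TC-1/IR, with 1.06 against 1.685. CCL19 averaged 4.93 ± 2.71 with IL-7 and 2.84 ± 0.950 without (SD, n = 4 each, exact permutation p = 0.229, adjusted 0.989). For RT, CCL19 averaged 4.55 ± 1.57 with RT and 3.22 ± 2.74 without (SD, n = 4 each, exact permutation p = 0.486, adjusted 1.00). These treatment averages of CCL19 and CCL20 overlapped, and 0 of 111 analytes had groups that did not overlap for IL-7, against 3 for RT.

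The analytes most like CCL19 over the 8 membranes were angiopoietin-like 3 (Pearson r = 0.80 of floored log2 intensities), CCL12 (0.63) and angiopoietin-2 (0.59), out of 74. After median centring they were C5/C5a (0.96), angiopoietin-like 3 (0.84) and CCL6 (0.81), out of 71. Angiopoietin-like 3, a regulator of lipoprotein lipase, and C5/C5a, a complement protein, have their spots directly above and directly below those of CCL19 on the membrane. Angiopoietin-like 3 measured 3.20, 0.84, 3.48 and 1.81 in TC-1/IR after RT + IL-7, IL-7, RT and buffer, and 4.54, 7.55, 2.80 and 1.07 in TC-1 in the same order. It followed CCL19 closely in TC-1, where both were highest after IL-7, but in TC-1/IR it had 3.20 after RT + IL-7 against 3.48 after RT, where CCL19 had 6.595 against 3.53. C5/C5a measured 2.11, 0.001, 1.125 and 2.04 in TC-1/IR after RT + IL-7, IL-7, RT and buffer, all under the floor. In TC-1 it measured 2.58, 3.835, 2.19 and 0.775 in the same order. Like CCL19, C5/C5a was highest after RT + IL-7 and lowest after IL-7 in TC-1/IR. CCL17, to the left of CCL19, had 2.56 after RT + IL-7 and 4.495 after RT in TC-1/IR, and 8.575 after IL-7 and 3.03 with buffer in TC-1. Spots in adjoining rows had a median r of 0.74 over 52 pairs on the whole array, spots side by side 0.69 over 47, and all other pairs 0.51 over 2676. The part of neighbouring spots in the values of CCL19 was not tested.

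With the lower floor of 0.5%, at which all 4 could be ranked, CCL20 had as its most alike analytes BAFF (r = 0.83), a B-cell survival factor, and complement factor D (0.83), an adipocyte product. Their spots lie directly above and below those of CCL20. Complement factor D was far brighter, at 26.3, 83.5, 74.8 and 24.6 in TC-1/IR after RT + IL-7, IL-7, RT and buffer, and 35.8, 47.7, 29.3 and 33.2 in TC-1 in that order. The TC-1/IR membrane after IL-7 that gave the highest CCL20 also had the highest complement factor D, and the part of this in the CCL20 value was not tested. CXCL13 was most like IL-5 (0.99), IFN-γ (0.98) and EGF (0.98), and CCL21 most like periostin (0.83), all over 8 membranes. A high r with CXCL13 was common: Gas 6, in the row below it, had 0.91 and ranked only 20th of 95.

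**Figure D4:**
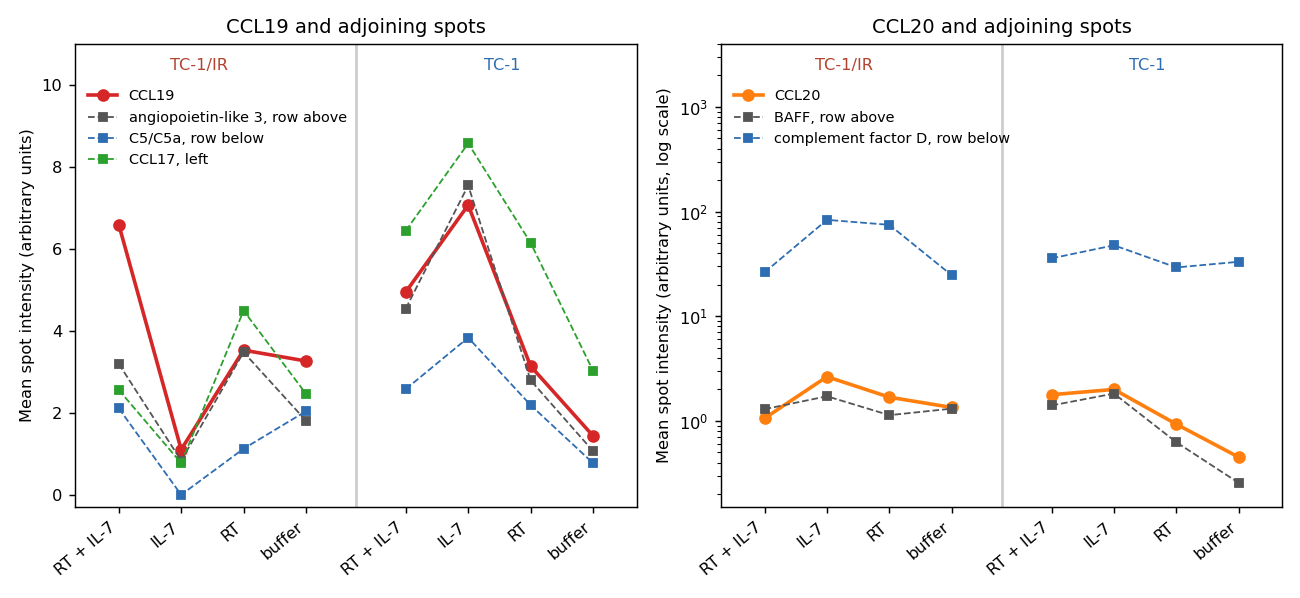
Mean spot intensity (arbitrary units) of CCL19 with its adjoining spots (left, linear scale) and of CCL20 with the spots above and below it (right, log scale) on the 4 TC-1/IR and 4 TC-1 membranes; lines only join points of 1 analyte. CCL19 and angiopoietin-like 3 run together in TC-1 and part in TC-1/IR after RT + IL-7, at 6.595 and 3.20.

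Other proteins tied to lymphoid tissue were described for comparison. Of 10 further homing and lymphoid tissue factors 9 were on the array and 5 entered the limma fit. Of these 5, 2 were lower and 0 higher in TC-1/IR, where 31 of all 75 analytes passed in either direction (41.3%). The 2 were the lymphocyte cytokine IL-7 by a log2 difference of -1.87 (SE 0.30, limma adjusted p = 0.00470) and TNF-α by -0.87 (SE 0.28, limma adjusted p = 0.0384). The median log2 difference of these 5 was -0.87, against -0.58 for all 75 analytes. Of 7 factors linked to CCL20 and Th17 cells 3 were fitted and 2 were lower in TC-1/IR, TNF-α and the alarm cytokine IL-1α (-0.90, SE 0.23, limma adjusted p = 0.0205). Among 5 fitted dendritic cell products, CCL22, which attracts regulatory T cells through CCR4, was lower (-1.95, SE 0.30, limma adjusted p = 0.00470). Of 12 other chemokines fitted, 3 were lower in TC-1/IR: CCL22 again, CX3CL1, which attracts cytotoxic lymphocytes (-1.77, SE 0.47, limma adjusted p = 0.0205), and CXCL9 (-1.04, SE 0.30, limma adjusted p = 0.0296). These shares are to be read against the same 41.3%, which counts both directions, and the median of the 12 was -0.63. In the size comparison of TC-1 after IL-7 with TC-1 with buffer, 8 of 13 other chemokines measured were called higher as CCL19 was, with a median log2 ratio of 0.78, against 29 of all 91 analytes measured and a median of 0.42. The 4 with the largest ratios were CCL17 (8.575 after IL-7, 3.03 with buffer), CXCL9 (7.33 after IL-7, 2.79 with buffer), LIX (6.53 after IL-7, 2.225 with buffer) and CCL12 (5.88 after IL-7, 1.745 with buffer). In TC-1/IR after RT + IL-7 against RT, by contrast, 2 of 15 other chemokines measured were called higher and 6 lower, and 3 of 3 homing and lymphoid tissue factors measured, CD40, IL-7 and TNF-α, were called lower where CCL19 was called higher. Of all 66 analytes measured there, 3 were called higher and 31 lower.

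The array held no marker that defines lymphatic vessels, T cells, B cells or the tumour cell itself. The 5 endothelial proteins were E-selectin, P-selectin, VCAM-1, ICAM-1 and endoglin. Their summed intensity ranged over 3.06 to 6.19 in TC-1/IR and 7.74 to 12.4 in TC-1, with no overlap. Such separation also held for 50 of 111 single analytes (45%), and at most 2 of the 5 were above the floor on any membrane. E-selectin, the only 1 of the 5 in the limma fit, did not pass for line (-0.05, SE 0.26, limma adjusted p = 0.882). The monocyte protein CD14 ranged over 38.7 to 179 in TC-1/IR and 94.7 to 132 in TC-1, and was 38.7 after RT + IL-7 against 165.6 after RT in TC-1/IR, where CCL19 was the higher after RT + IL-7. The 2 neutrophil proteins summed to between 4.26 and 109 in TC-1/IR, with the highest on the IL-7 membrane that had the lowest CCL19 and the highest CCL20. The 5 adipose proteins summed to between 35.2 and 98.0 in TC-1/IR and between 51.9 and 75.0 in TC-1. The part of these cell types in the chemokine values was not tested.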

How the data were processed

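Lysates of 8 tumour groups were measured with 1 membrane each. Per the labels, the authors spun homogenates at 10000 g for 5 min and detected bound proteins with a biotinylated antibody cocktail. The deposited values are spot intensities on a linear scale, 222 spots a membrane, and values of the series table and the per-membrane files differed at 0 spots. How membranes were exposed, background-corrected or scaled is not stated in these sources. Duplicate spots were averaged, means under the floor (2.49) were raised to it, and log2 values were fitted with limma 3.58.1 in R 4.3.3 over the 75 analytes that exceeded it on 4 or more of the 8 membranes, with line, RT and IL-7 as terms (4 residual degrees of freedom) and Benjamini-Hochberg adjustment at 0.05. Separate fits added RT by IL-7, or line by RT and line by IL-7. Exact permutation tests, added after seeing the data, used unfloored intensities.

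Named analytes were the 4 chemokines, the 3 analytes most like each by Pearson r, and list members. The lists were chosen, like the 4 chemokines, with earlier results of these data known. Alternatives were a floor of 0.5%, of 2% or per membrane, median centring, and the first or the second spot alone. Others were 2-fold in place of 1.5-fold, no filter, a trend with intensity, a block for treatment, and leaving out each membrane. The fits were tested on simulated data. No depth or count exists for these intensities, so the number of membranes limits precision. The median coefficient of variation of duplicate spots, over the analytes above the floor on a membrane, was 5.02% to 11.1%. Single analytes varied more: the spot SD of CCL19 was 1.12 at a mean of 3.265 in TC-1/IR with buffer. It was 0.877 at a mean of 3.53 in TC-1/IR after RT.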

Additional observations from a re-analysis of the deposited data

Results flagged for a closer look

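Without RT, IL-7 went with opposite signs for CCL19 in the 2 lines. IL-7 minus buffer was -2.16 intensity units in TC-1/IR, which was not called, and 5.63 in TC-1. With RT the signs were alike, CCL19 being 6.595 after RT + IL-7 against 3.53 after RT in TC-1/IR and 4.95 against 3.14 in TC-1. The difference without RT was not tested, with 1 membrane a group, and the fitted line by IL-7 term, which averages over RT, did not pass (limma adjusted p = 0.982).

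With IL-7, adding RT also went with opposite signs. RT + IL-7 minus IL-7 was 5.49 in TC-1/IR and -2.12 in TC-1, which was not called. Without IL-7, CCL19 was 3.53 after RT against 3.265 with buffer in TC-1/IR and 3.14 against 1.44 in TC-1. The difference with IL-7 was not tested, and the line by RT term, which averages over IL-7, did not pass (limma adjusted p = 0.999). Both contrasts use the IL-7 membrane of each line, and CCL19 was below the floor in TC-1/IR after IL-7 (1.105).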

How the results depend on the processing

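No paired analysis was possible because the replicate numbers join no samples, each group having 1 membrane. With treatment as a block, which sets the lines side by side within each treatment, limma called 37 analytes for line in place of 31, and CCL19 had an adjusted p of 0.778. No fitted limma estimate of CCL19 passed under any alternative run. Those for IL-7, line by RT and line by IL-7 kept their sign, and the others did not. The log2 line estimate of -0.13 was 0.065 with a floor per membrane, 0.25 with median centring and -0.30 to 0.24 with 1 membrane left out, positive without TC-1 after IL-7 (0.18) and without TC-1/IR after IL-7 (0.24). The RT estimate of 0.33 was -0.036 to 0.65 with 1 left out, the negative value without TC-1/IR after IL-7. The RT by IL-7 estimate of 0.22 was -0.17 with a floor per membrane and -0.69 to 1.14 with 1 left out, negative without TC-1/IR after IL-7 (-0.69), RT + IL-7 (-0.14) or buffer (-0.13). The unfloored line difference of CCL19 was -0.53 as deposited and 1.46 with median centring. Of the 56 chemokine comparisons, 7 were called as reported, 11 with median centring, 23 with a floor of 0.5%, 18 with a floor per membrane, 0 with a floor of 2% and 4 at 2-fold. The share of all analytes called under these other settings is not given, so the counts cannot be read as particular to the chemokines. The log2 ratio of CCL19 for RT over buffer in TC-1/IR was 0.11 as deposited and reversed to -0.73 with median centring, and this comes with the summed signal of 1472.5 after RT against 765.1 with buffer. With the floor of 0.5%, CXCL13 was called lower in TC-1/IR in all 4 treatments. The ratio was 2.08-fold after RT. With TC-1/IR below that floor, it was at least 2.11-fold after RT + IL-7, at least 2.45-fold after IL-7 and at least 1.58-fold with buffer. Without the share of all analytes called at that floor, the 4 calls cannot be read as particular to CXCL13. With the floor of 2.49, analytes called lower in TC-1/IR numbered 37 (buffer), 33 (RT), 53 (IL-7) and 44 (RT + IL-7). Those called higher numbered 3, 12, 6 and 2 in that order.

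Over all analytes, 31 of 75 were called for line, 10 with a floor of 2%, and 7 to 38 with 1 membrane left out. The low counts came without the TC-1 membrane after RT (7), IL-7 (9) or RT + IL-7 (15) and without the TC-1/IR membrane after RT + IL-7 (13), each with fewer samples. For RT, 1 was called, but 0 with a floor of 0.5%, a floor per membrane or an intensity trend, and 0 without any 1 membrane. For RT by IL-7, 0 were called, but 2 with no filter, and 0 to 15 with 1 membrane left out, the 15 without TC-1 after RT and 1 without TC-1 after IL-7. For IL-7, line by RT and line by IL-7, limma called 0 under every alternative run. Beyond the floor, signal over background limits CCL20, CCL21 and CXCL13. Pooled spot SDs were 0.218 to 0.442 below the floor and 0.492 to 0.749 for means between 1.245 and 4.98.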
